A study of Homo sapiens with 6 samples.

Results

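The ERK feedback genes described here are 10 genes, the MAP kinase phosphatases DUSP1, DUSP4, DUSP5, DUSP6, DUSP7 and DUSP10, the Sprouty genes SPRY2 and SPRY4, and SPRED1 and SPRED2. They were chosen by name, with earlier results of these data known, and all 10 were found among the 22933 gene symbols of the deposited table. Their expression was compared between PC-3 cells labelled tdTom and PC-3 cells labelled TTP-tdTom, with 3 samples in each group. PC-3 cells are a widely used human line of prostate cancer epithelium, taken from a metastasis to bone. Cells of both groups carried the advanced reverse tetracycline transactivator rtTA2 after retroviral infection and G418 selection. They then received a retrovirus with tdTomato under the PGK promoter, alone (tdTom) or together with TTP under the Tet-responsive Tight promoter (TTP-tdTom), and the infected cells were collected by flow sorting. Cells of both groups were exposed to 300 ng/ml doxycycline (Dox) for 4 hours before RNA was collected, so that by their labels they differed by the TTP transgene. Each cell type was a sorted population of infected cells, and no sample without Dox was analysed here.

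The comparison asks how the mRNAs of these genes compare once Dox has been present for 4 hours in cells with and without the TTP transgene. ERK is the last kinase of the cascade that runs from growth factor receptors through Ras, RAF and MEK. ERK activity switches on transcription of genes whose products then dampen it, and these are the feedback genes. DUSP proteins remove phosphate from MAP kinases themselves, whereas Sprouty and Spred proteins act further up, between the receptor, Ras and RAF. TTP is an RNA-binding protein that recognizes AU-rich elements in 3′UTRs and brings the mRNA to decay, and mRNAs of several MAP kinase phosphatases are known for rapid turnover.

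The authors' deposited table gives 1 FPKM value (fragments scaled to the length of the transcript and to the size of the library) per group at each of 406165 assembled loci, and no values for single samples. No spread between replicates can therefore be given, no test between the groups was run, and every difference below is a difference between a pair of group values with no replicate check. The labels state a sequencing depth that was aimed for, but FPKM holds no counts and so shows neither the depth reached nor how many fragments a gene had. ZFP36, the gene that encodes TTP, had an FPKM of 5.56 in tdTom cells and 5.54 in the group labelled TTP-tdTom, so its own locus (chromosome 19, 39897487 to 39900052, GRCh37) did not separate the groups; whether transgene fragments were counted there was not tested. Of the epithelial markers, KRT8, KRT18, KRT19 and EPCAM lay between 15.1 and 98.2 FPKM in tdTom cells, while CDH1 was at 0.119. Of 6 markers of blood, endothelial and stromal cells, 5 lay at or below 1.38 FPKM in both groups, and COL1A1 was at 4.34 and 4.56. A symbol was called expressed where the mean of the group values was at least 1 FPKM and both were above 0. This held for 12511 symbols, whose median log2 difference (labelled TTP-tdTom over tdTom) was -0.24, so that a typical expressed gene was already lower in the group labelled TTP-tdTom. The 8 reference transcripts, among them ACTB, GAPDH and UBB, had log2 differences from -0.56 for TBP to -0.068 for UBB, with a median of -0.22 that turned to 0.020 relative to the median expressed symbol.

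TTP is known to bind the heptamer UAUUUAU at the core of AU-rich elements. The longest 3′UTR that GENCODE release 29 (GRCh38) gives for each gene was therefore searched for these letters on the transcript strand. Copies were found in 7 of the 10 genes and numbered 20 in all. SPRED1 held 5 in a 3′UTR of 5585 bases, DUSP4 held 4 in 3962 bases, SPRY4 held 4 in 3782 bases, DUSP1 held 3 in 672 bases, SPRY2 held 2 in 782 bases, and DUSP7 and SPRED2 held 1 each. DUSP5, DUSP6 and DUSP10 held 0, in 3′UTRs of 1118, 2022 and 988 bases. The sites of SPRED1 are shown because this gene had the largest difference between the groups, those of DUSP1 because they are the densest, and those of SPRY2 because it was second to SPRED1 in how far it lay below the tdTom level. Each line gives 30 bases, 5′ to 3′, with the heptamer in capitals, the position of its first base in the 3′UTR, and the place of the 30 bases in GRCh38. All of them lie in the last exon.
SPRED1, position 307, chr15:38351960-38351989, plus strand: gcauuuuuguaUAUUUAUgcauuaggugau
SPRED1, position 1696, chr15:38353349-38353378, plus strand: gaaagcauuuaUAUUUAUaugacagcuuga
SPRED1, position 2931, chr15:38354584-38354613, plus strand: cauuaaagggcUAUUUAUguggugaccacc
SPRED1, position 4949, chr15:38356602-38356631, plus strand: ucuuaauaacaUAUUUAUucauccuuaauu
SPRED1, position 5009, chr15:38356662-38356691, plus strand: uaauaauguuaUAUUUAUugguuugguaac
DUSP1, position 102, chr5:172768642-172768671, minus strand: gggcugguccuUAUUUAUuuaacuucaccc
DUSP1, position 370, chr5:172768374-172768403, minus strand: agaauauaccuUAUUUAUuuuuguguaggu
DUSP1, position 563, chr5:172768181-172768210, minus strand: uguuugcugauUAUUUAUgaccugaaauaa
SPRY2, position 619, chr13:80336121-80336150, minus strand: aguguaaagaaUAUUUAUuugaaguuuuau
SPRY2, position 655, chr13:80336085-80336114, minus strand: auaaaaaagaaUAUUUAUuuuaagaggcau

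Across the 10 genes, the group labelled TTP-tdTom had the lower FPKM for 8 (DUSP1, DUSP4, DUSP6, DUSP7, SPRY2, SPRY4, SPRED1 and SPRED2) and the higher FPKM for DUSP5 and DUSP10. DUSP10 did not reach a mean of 1 FPKM and was kept out of the counts that follow, which therefore cover 9 genes. Of these 9, 8 were lower, beside 79.9% of all expressed symbols, and 1 was higher, beside 20.1%. SPRED1 alone was lower by at least 2-fold, 1 of 9, against 8.30% of expressed symbols, so the count at that size was close to the background. None of the 9 was higher by 2-fold or by 1.5-fold, against 1.22% and 2.37% of expressed symbols. At 1.5-fold, 5 of the 9 (DUSP1, DUSP7, SPRY2, SPRY4 and SPRED1) were lower, 55.6% against 22.7% of expressed symbols. With a pseudocount of 1, a setting added after seeing the data, DUSP1, DUSP7 and SPRY2 no longer were. The count was then 2, against 18.2% of expressed symbols. The median log2 difference of the 9 was -0.61, beside -0.24 over expressed symbols. Relative to the median expressed symbol the count at 1.5-fold was no longer above the background. Of the 9, 1 (SPRED1) was lower by that much, 11.1% against 13.3% of expressed symbols, and 1 (DUSP5) was higher, against 4.61%. These centred counts rest on near ties. SPRY2, at -0.58468, fell just short of the cut of -0.58496, and DUSP5, at 0.588, only just passed on the other side. By the same centred measure SPRED1 was also lower by 2-fold, against 3.87%, and none was higher by 2-fold, against 1.65%.

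**Figure D1:**
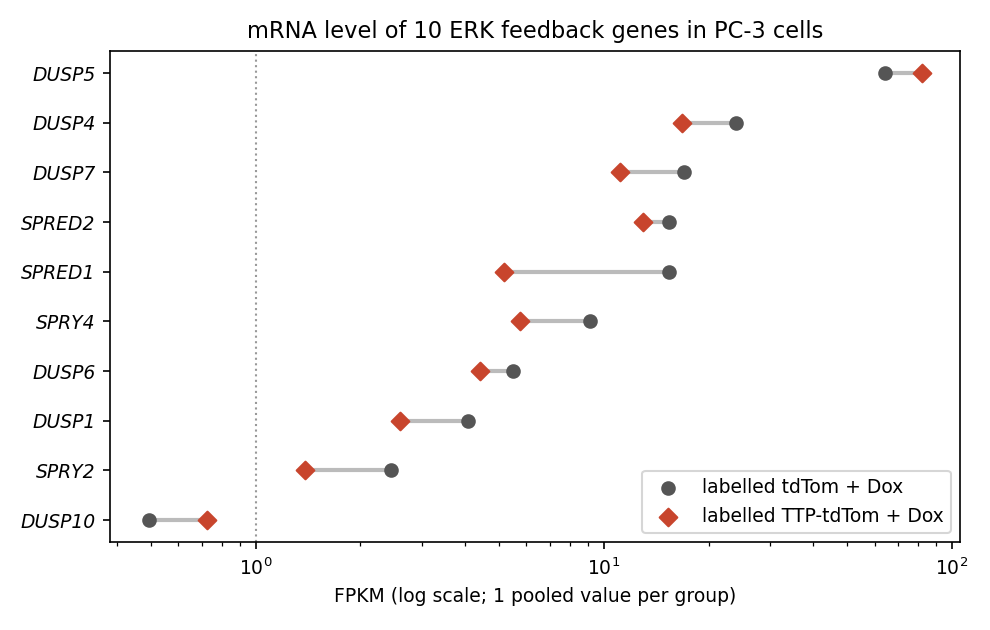
FPKM of the 10 genes on a log axis, 1 pooled value per group, with tdTom as grey circles and the group labelled TTP-tdTom as red diamonds; the dotted line marks 1 FPKM and there are no error bars because no replicate values were analysed. SPRED1 has the widest gap, from 15.3 to 5.17, and DUSP5 is the highest gene in both groups and lies to the right in the group labelled TTP-tdTom.

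DUSP1, DUSP4 and DUSP5 encode phosphatases that work in the nucleus and are induced by mitogens. DUSP5, which acts on ERK and holds it in the nucleus, was the highest of the 10 genes in both groups. Its FPKM was 64.3 in tdTom cells and 81.9 in the group labelled TTP-tdTom, a level 1.27-fold higher there (log2 difference 0.35). It was the one expressed gene of the 9 with a higher value in the group labelled TTP-tdTom, and 4.56% of expressed symbols had a larger log2 difference. In the tdTom group 9.43% of expressed symbols stood above DUSP5, and in the group labelled TTP-tdTom 5.74% did. DUSP5 lies on chromosome 10 of GRCh37 from 112257625 to 112271302.

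DUSP4, which acts on ERK and on JNK, came after DUSP5 in level. Its FPKM was 23.9 in tdTom cells and 16.8 in the group labelled TTP-tdTom, or 70.3% of the tdTom value (log2 difference -0.51). The locus is on chromosome 8 from 29190579 to 29208267. The ratio of DUSP5 to DUSP4, both nuclear phosphatases, was 2.69 in tdTom cells and 4.88 in the group labelled TTP-tdTom. DUSP1, an immediate early gene whose product prefers p38 and JNK to ERK, was low in both groups. Its FPKM was 4.07 in tdTom cells and 2.61 in the group labelled TTP-tdTom, which is 64.0% of the tdTom value (log2 difference -0.64). The DUSP1 locus is on chromosome 5 from 172195001 to 172198246, and its 3′UTR is the one with 3 heptamers in 672 bases printed above.

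DUSP6 and DUSP7 encode the cytoplasmic phosphatases that are selective for ERK. Their differences were unlike each other in size. DUSP7, on chromosome 3 from 52082937 to 52090461, had an FPKM of 17.0 in tdTom cells and 11.1 in the group labelled TTP-tdTom, or 65.3% (log2 difference -0.61). DUSP6, on chromosome 12 from 89741837 to 89746296, had an FPKM of 5.51 in tdTom cells and 4.40 in the group labelled TTP-tdTom, or 80.0% (log2 difference -0.32). DUSP6 is a much used transcript readout of ERK activity, and its difference relative to the median expressed symbol was -0.084 on the log2 scale. DUSP10, a phosphatase for JNK and p38 on chromosome 1 from 221874764 to 221915516, was listed at 0.493 in tdTom cells and 0.724 in the group labelled TTP-tdTom. These values lie in the range of loci that carry no gene symbol near the other 9 genes; none lay within 5 kb of DUSP10 itself. These 53 loci, all within 5 kb of one of the 9, had a median FPKM of 0.625 in tdTom cells and 0.618 in the group labelled TTP-tdTom. The difference in DUSP10 is therefore given as values only.

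**Figure D2:**
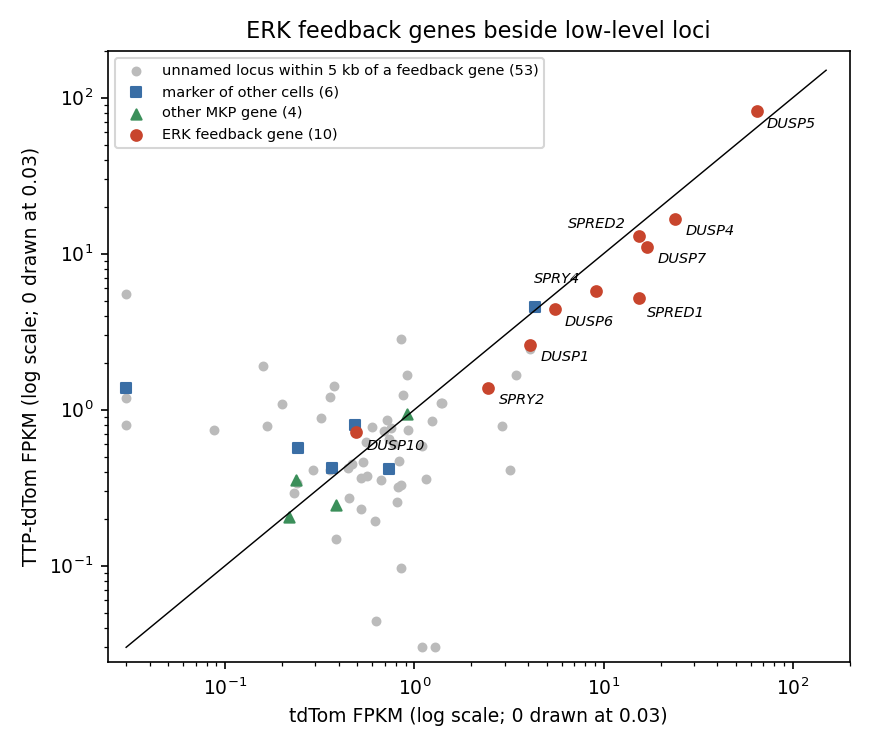
FPKM in tdTom cells (x) against the group labelled TTP-tdTom (y), both on log axes, for the 10 genes, the 4 other MAP kinase phosphatase (MKP) genes, 6 markers of other cells and 53 loci without a symbol within 5 kb of 9 of them (none near DUSP10); the line marks equal values and a listed 0 is drawn at 0.03. DUSP10 and the 4 other MKP genes sit among the unnamed loci, and SPRY2 also falls within their range in both groups, since the highest unnamed loci reach 4.07 in tdTom cells and 5.55 in the group labelled TTP-tdTom.

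The other MKP genes of these classes were near the same floor. DUSP2, DUSP8, DUSP9 and DUSP16 had FPKM values of 0.386, 0.218, 0.237 and 0.914 in tdTom cells. In the group labelled TTP-tdTom they were at 0.246, 0.207, 0.355 and 0.945. None of the 4 reached a mean of 1 FPKM, so that DUSP5, DUSP4, DUSP7, DUSP6 and DUSP1, in this order, made up the detected MKP transcripts of tdTom cells. The order of these 5 was the same in the group labelled TTP-tdTom.

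The Sprouty genes encode membrane-associated inhibitors of signalling from receptor tyrosine kinases. SPRY2, on chromosome 13 from 80910112 to 80915086, was low, with an FPKM of 2.45 in tdTom cells and 1.39 in the group labelled TTP-tdTom, or 56.5% (log2 difference -0.82). SPRY4, on chromosome 5 from 141689992 to 141704620, had an FPKM of 9.12 and 5.74, or 63.0% (log2 difference -0.67). Both were lower by more than 1.5-fold. With a pseudocount of 1, however, SPRY2, at -0.53, no longer was and SPRY4, at -0.59, only just was. Relative to the median expressed symbol SPRY2 was at -0.58 and SPRY4 at -0.43, both short of 1.5-fold, SPRY2 narrowly. Of expressed symbols, 13.3% had a lower log2 difference than SPRY2 and 19.0% a lower one than SPRY4. Their relative SPRY1 was lower too, with an FPKM of 7.90 in tdTom cells and 3.83 in the group labelled TTP-tdTom (log2 difference -1.05). The locus counted for SPRY1 also holds RefSeq transcripts without a symbol. SPRY3 was at 0.269 and 0.310, below the level called expressed.

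SPRED1 and SPRED2 encode related proteins with an EVH1 domain at one end and a Sprouty domain at the other; SPRED1 is known to bring neurofibromin to the membrane, where it switches Ras off. At the row used for SPRED1 they had nearly the same level in tdTom cells and parted in the group labelled TTP-tdTom. SPRED1 had an FPKM of 15.3 in tdTom cells and 5.17 in the group labelled TTP-tdTom, which is 33.7% of the tdTom value (log2 difference -1.57). Only 1.29% of expressed symbols had a lower log2 difference. SPRED2, on chromosome 2 from 65537983 to 65659709, had an FPKM of 15.4 and 12.9, or 84.3% (log2 difference -0.25), close to the -0.24 of the median expressed symbol. The ratio of SPRED1 to SPRED2 was 1.00 in tdTom cells and 0.400 in the group labelled TTP-tdTom. SPRED3 had an FPKM of 2.38 and 1.85 (log2 difference -0.36).

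SPRED1 is the one gene of the 10 that the table holds at more than 1 locus, and the size of its difference depends on which is read. Both rows cover chromosome 15 of GRCh37 from 38542813 to 38650759 and name the same RefSeq transcript; the row with the higher FPKM was used above. The other row had an FPKM of 2.97 in tdTom cells and 4.18 in the group labelled TTP-tdTom, a log2 difference of 0.49 in the opposite direction. The second row was 16.2% of the summed SPRED1 FPKM in tdTom cells and 44.7% in the group labelled TTP-tdTom. With the FPKM of both rows added, SPRED1 was at 18.3 in tdTom cells and 9.35 in the group labelled TTP-tdTom, the log2 difference was -0.97, and SPRED1 no longer passed 2-fold. The ratio of SPRED1 to SPRED2 was then 1.19 and 0.723. The table gives no strand for its loci, so whether the second row holds fragments of the opposite strand was not tested.

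In sum over the 10 genes, FPKM was 157.6 in tdTom cells and 142.8 in the group labelled TTP-tdTom, or 90.6%. The median log2 difference of expressed symbols corresponds to 84.7% of the tdTom value. DUSP5 made up 40.8% of this sum in tdTom cells and 57.4% in the group labelled TTP-tdTom. Without DUSP5 the sum was 93.3 and 60.9, or 65.3%. Since DUSP5 was the one expressed gene of the 10 that was higher, leaving it out had to lower this percentage.

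**Figure D3:**
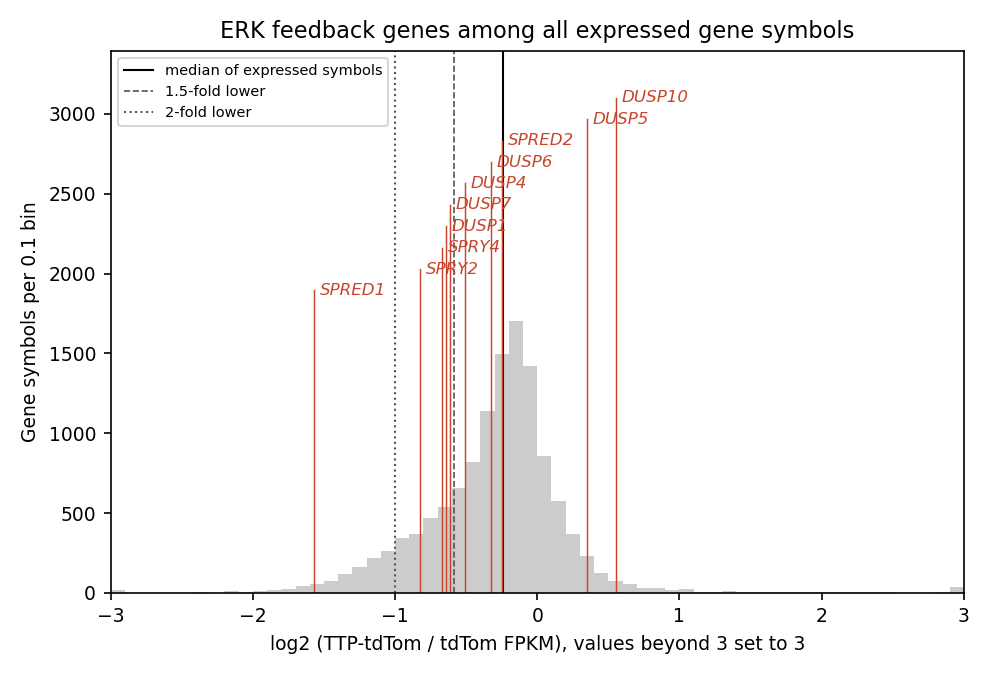
Number of gene symbols per 0.1 of log2 difference (labelled TTP-tdTom over tdTom) for the 12511 expressed symbols, with a red line at each of the 10 genes; the solid black line marks the median of expressed symbols, -0.24, and the broken lines mark 1.5-fold and 2-fold lower. SPRED1 stands in the left tail, SPRED2 next to the median and DUSP5 in the right tail; DUSP10 is drawn although it did not pass the filter.

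The heptamer sites can be set beside these differences. The 7 genes with a copy in the longest 3′UTR were all lower in the group labelled TTP-tdTom, as were 79.9% of all expressed symbols, with log2 differences from -1.57 for SPRED1 to -0.25 for SPRED2. The 3 genes without one were DUSP6, at -0.32, DUSP5, at 0.35, and DUSP10, which was not expressed by the filter. Among 10716 expressed symbols with a 3′UTR, 85.7% of all expressed symbols, 36.5% held a copy. Their median log2 difference was -0.44, against -0.18 for symbols without a copy. The share with a copy differed with the length of the 3′UTR. Among expressed symbols with a 3′UTR within 20% of the length of that of SPRED1, 74.7% held the heptamer, whereas 19.9% did at the length of DUSP1 and 22.6% at the length of SPRY2. At the length of SPRED1 the median log2 difference was -0.46 with a copy and -0.23 without, and at the length of DUSP1 it was -0.35 and -0.15. Median transcript GC content went from 51.5% with 0 copies to 38.9% with 5 or more, so copies, length and GC content moved together, and their parts were not tested. The nonamer UUAUUUAUU, which contains the heptamer, was found in 2 copies in DUSP1 and 1 in DUSP4 and in none of the other 8 genes; 9.52% of expressed symbols with a 3′UTR held it. A match is a stretch of letters and not a measured site of TTP binding. With the GENCODE transcript that is paired with the RefSeq name of the gene's own locus, a reading chosen after seeing the data, DUSP7 held 0 copies in 1896 bases and the number of genes with a copy was 6.

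**Figure D4:**
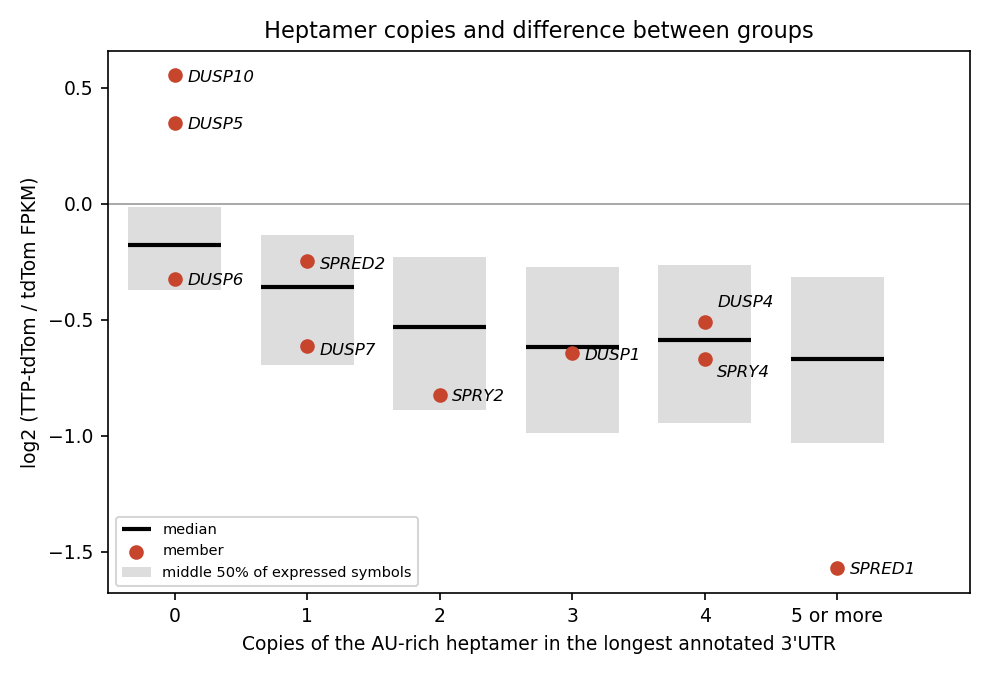
Log2 difference (labelled TTP-tdTom over tdTom) by number of heptamer copies in the longest annotated 3′UTR; grey boxes span the middle 50% of expressed symbols with a 3′UTR, black bars mark their medians and red points are the 10 genes. The medians of expressed symbols go from -0.18 with 0 copies to -0.67 with 5 or more. DUSP5 lies above 0 in the column of 0 copies, as does DUSP10, which did not pass the filter. SPRED1, drawn from the row used, lies below the box of 5 or more. With both SPRED1 rows added, at -0.97, it would lie inside the box as drawn, whose lower edge is at -1.03.

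Base composition moved with the differences in these libraries. Expressed symbols with a 3′UTR were divided into deciles by the GC content of the transcript. The median log2 difference was -0.77 in the lowest decile and -0.090 in the highest. The SPRED1 transcript, with 38.9% GC, lies next to the lowest decile, in one with a median of -0.57, against -1.57 for SPRED1 itself. With both SPRED1 rows added its log2 difference was -0.97. DUSP7 (60.1% GC), DUSP1 (55.1%), SPRY4 (52.2%) and SPRY2 (48.3%) lie in deciles whose medians were between -0.20 and -0.10. Set against those medians, their log2 differences were -0.51, -0.53, -0.52 and -0.63. DUSP4 (51.3% GC) was at -0.36 by the same measure, DUSP6 (46.7%) at -0.064 and SPRED2 (48.7%) at -0.050. DUSP5 (55.9% GC) was above its decile median by 0.46. The part of GC content in these differences was not tested.

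The genes around the feedback loop were drawn up as lists by name. Of 22 genes of the ERK cascade, 21 were expressed. Of these, 18 were lower and 3 higher in the group labelled TTP-tdTom, 6 were lower by at least 1.5-fold and 2 by 2-fold, and the median log2 difference was -0.35, or -0.11 relative to the median expressed symbol. Over all expressed symbols 79.9% were lower, 22.7% by at least 1.5-fold and 8.30% by 2-fold, and the counts of the cascade were near these shares; the lists that follow are to be read against the same shares. PTPN11, the phosphatase SHP2 that relays receptor signals to Ras, had the most negative log2 difference of the list, -1.54, with an FPKM of 87.3 and 29.9, and CNKSR1, a scaffold, had the most positive, 0.61, with 1.38 and 2.10. Some further genes were singled out after their values were seen, because they encode kinases of the cascade or a partner of SPRED1. MAPK3, which encodes ERK1, had an FPKM of 8.46 in tdTom cells and 94.5% of it in the group labelled TTP-tdTom (-0.081). MAP2K1, which encodes MEK1, had 7.37 and 3.05 (-1.27), whereas MAP2K2, which encodes MEK2, had 32.7 and 30.5 (-0.10). MAPK3 and MAP2K2 lay above the median expressed symbol, at 0.16 and 0.14 relative to it. NF1, which encodes the neurofibromin that SPRED1 recruits, had 11.7 and 6.44 (-0.86).

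Of 14 transcripts known to be induced by ERK signalling, 12 were expressed. Of these, 10 were lower and 2 higher, 5 were lower by at least 1.5-fold and 4 by 2-fold, and the median log2 difference was -0.51, or -0.27 relative to the median expressed symbol. PHLDA1 was the lowest relative to tdTom cells, with an FPKM of 13.4 and 5.16 (log2 difference -1.38), and IER2, an immediate early gene, was the highest, with 23.9 and 26.1 (0.13). The most abundant were FOSL1, an AP-1 subunit, with 1404 and 1261 (-0.16), and CCND1, which encodes cyclin D1, with 404.1 and 208.4 (-0.96). The FOSL1 locus also carries another gene, C11orf68, so this value cannot be assigned to FOSL1 alone. EGR1 and FOS were below 1 FPKM in both groups, at 0.138 and 0.269 for EGR1 and 0.367 and 0.456 for FOS.

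JNK and p38 are the other substrates of MAP kinase phosphatases. Of 14 genes of their cascades, 11 were expressed, with 9 lower, 2 higher and 5 lower by at least 1.5-fold. The median log2 difference was -0.14, which turned to 0.096 relative to the median expressed symbol. MAP2K4 was at the low end, with an FPKM of 13.9 and 6.22 (-1.16), and MAP2K7 at the high end, with 7.88 and 8.68 (0.14), although both encode kinases of JNK. Of 11 atypical and small DUSP genes, 10 were expressed, with 8 lower, 2 higher and 4 lower by at least 1.5-fold, and a median of -0.26, or -0.020 relative to the median expressed symbol. STYX, a pseudophosphatase, had an FPKM of 59.0 and 23.7 (-1.32), and DUSP18 had 0.894 and 1.21 (0.43).

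**Figure D5:**
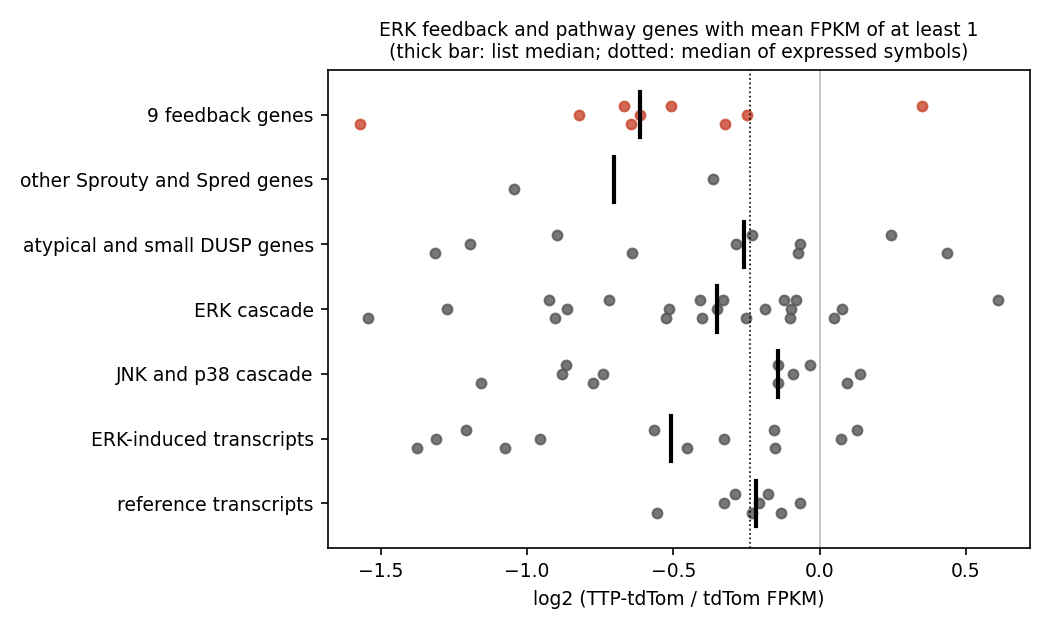
Log2 difference (labelled TTP-tdTom over tdTom) of the 9 expressed feedback genes in red and of the expressed genes of 6 lists in grey, 1 point per gene; thick bars mark list medians and the dotted line the median of expressed symbols. The 9 genes centre on -0.61, the ERK cascade on -0.35, ERK-induced transcripts on -0.51 and reference transcripts on -0.22.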

How the data were processed

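The authors sequenced RNA of 6 samples of PC-3 cells, 3 per group, as stranded paired-end libraries. Alignment was to Hs37D5 (GRCh37 with decoys) by TopHat2 2.0.13, and loci were assembled and compared by Cufflinks 2.2.1, per the labels. The deposited table holds the authors' FPKM, 1 value per group and locus; replicates cannot be separated, and library normalization is not given in the sources used here. The authors' fold changes, test statistics, p-values and q-values for this comparison were not used. The replicate fits written into the design for values per sample could not be run.

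Where a symbol stood at several loci, its row with most RefSeq names, then the highest summed FPKM, was taken; this applied to 4350 symbols. Log2 differences are plain ratios (pseudocount 0), labelled TTP-tdTom over tdTom, among symbols with a mean of at least 1 FPKM and above 0 in both groups. Functions were tested on simulated data. 3′UTRs came from GENCODE release 29, matched by symbol. All 10 genes had one. Named genes are the 10 feedback genes and the other MKP, Sprouty and Spred genes, ZFP36, the highest and lowest log2 difference of each list and the most abundant list genes; others are marked in the text, and 1 gene of the lists is not reported here by name. The genes and lists were chosen with earlier results of these data known. Alternatives were pseudocounts of 0.1 and 1, centring, rescaling, other locus rules, other FPKM minimums and a 1.5-fold threshold. Python 3.11.15, numpy 2.4.6, pandas 2.3.3 and matplotlib 3.10.9 were used.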

Additional observations from a re-analysis of the deposited data

Results flagged for a closer look

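Values at loci outside the comparison were looked for beside the 10 genes. The second SPRED1 row had an FPKM of 4.18 in the group labelled TTP-tdTom, above the 2.97 of the tdTom group. A locus without a symbol within 5 kb of DUSP5 was at 5.55 in the group labelled TTP-tdTom and listed at 0 in the tdTom group. At the same coordinates 2 further loci went the other way, with 0.923 in the tdTom group and 0.746 in the group labelled TTP-tdTom at one and 0.823 and 0.319 at the other. A locus near SPRY2 was at 2.85 against 0.846 in the tdTom group, whereas one near DUSP4 was lower, at 0.410 against 3.20. These differences were not tested, since no replicate values were analysed.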

How the results depend on the processing

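No paired analysis was possible because only 1 value is given for each group, and no replicate could be left out. Centring and rescaling, the settings that can turn the sign of a log2 difference at a gene with 1 locus, turned none of the 10. The second SPRED1 row read alone, a setting chosen after seeing the data, turned SPRED1 to 0.49. The number of genes lower by at least 2-fold, 1, was 0 with FPKM summed over the loci of a symbol and 5 at a 1.5-fold threshold. At 1.5-fold, settings added after seeing the data, the number was 2 with a pseudocount of 1 (18.2% of expressed symbols), 1 after centring on the median expressed symbol (13.3%) and 4 after rescaling to the same FPKM sum (20.2%). It was 2 with a mean of at least 10 FPKM (24.2%), where only DUSP4, DUSP5, DUSP7, SPRED1 and SPRED2 entered. The median log2 difference, -0.61, was -0.49 with a pseudocount of 1, -0.38 after centring and -0.51 with a mean of at least 10 FPKM. At that minimum the medians were -0.97 over 2 JNK and p38 genes, -0.71 over 4 atypical DUSP genes and -0.36 over 8 ERK-induced transcripts. The number of genes with a heptamer was 7 with the longest 3′UTR and 6 with the median over all 3′UTRs or with the transcript paired with the RefSeq name. The fragments behind each value are not known, so no counting error can be given for DUSP10 and other low genes.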

Other observations

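Upstream of SPRY4, 3 loci without a symbol share the interval from 141704724 to 141733370 on chromosome 5 of GRCh37, a gene neighbourhood singled out after its values were seen. Their FPKM was 4.07, 3.43 and 2.90 in the tdTom group and 2.46, 1.67 and 0.788 in the group labelled TTP-tdTom, so that all 3 were lower there, as SPRY4 itself was. They were the highest of the 53 loci without a symbol near the genes described here in the tdTom group apart from 1 near DUSP4, at 3.20. Of all 53, 42 were below 1 FPKM in the tdTom group and 40 in the group labelled TTP-tdTom.

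SPRED1 and its partner NF1 were both lower, as were SHOC2 and RASA1 of the ERK cascade list, at log2 differences of -0.90 and -0.72. These genes were picked after their values were seen. STYX and DUSP14 held 0 heptamer copies and were lower by -1.32 and -1.19 on the log2 scale, while SPRED3 held 7 copies and was at -0.36. Among the 64 expressed list genes with a 3′UTR, 11 of the 21 that were lower by at least 1.5-fold held a heptamer, against 14 of the other 43. Over all expressed symbols with a 3′UTR the shares were 62.2% and 28.8%.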
